A study of Bos taurus with 2 samples.

Results

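Keratins and keratin-associated proteins were examined in the muzzle of 2 HanWoo cows, a native Korean breed, with 1 Agilent 1-colour bovine array per cow. A probe was a member if its RefSeq accession carries a bovine symbol that starts with KRT and a digit, or with KRTAP. This rule used no measured value. It found 88 probes of 46 genes among the 43639 noncontrol probes of the arrays, namely 71 probes of 36 keratin genes and 17 probes of 10 keratin-associated protein genes. The RefSeq table holds 80 symbols of this kind, and the other 34, among them KRT1, KRT2, KRT13, KRT16 and KRT18, were not analysed here.

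The light-muzzle sample was nose tissue of yellow colour and the dark-muzzle sample was nose tissue of black colour. Both cows were untreated females of the Hanwoo strain, 30 months old, and the question was which genes differ in expression with muzzle colour. The front of the muzzle was taken as whole tissue, so epithelium, glands and muscle were extracted together. With 1 array per group no test was possible, each difference is one between 2 animals, muzzle colour and animal cannot be told apart, and precision is limited by having so few arrays. In such bulk samples, fewer cells of a type and less RNA per cell cannot be told apart.

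Keratins are the intermediate filament proteins of epithelial cells, and a filament is built from pairs of an acidic type I and a basic type II keratin. Each epithelium uses its own pairs. KRT5 and KRT14 fill the dividing basal layer of stratified epithelium, KRT1 and KRT10 replace them as epidermal cells differentiate, and KRT4 with KRT13 takes that place in moist mucosa such as mouth and oesophagus. KRT7, KRT8, KRT18 and KRT19 are the simple keratins of glands and ducts. Hair is built from its own keratins, which are embedded in the hair shaft in a matrix of cysteine-rich keratin-associated proteins. The bovine muzzle is hairless skin with a thick cornified epithelium over large serous glands, bordered by hairy skin and oral mucosa.

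Signals are processed signals, the brightness of a spot after background subtraction by Agilent's Feature Extraction software. Ratios are the log2 level of the dark muzzle minus that of the light muzzle, after the 75th percentile of each array was subtracted. A probe was detected where that software flagged it as well above background, a ratio was measured where it was detected on both arrays, and a probe well above background in only 1 cow was given a lower bound. The bound sets the bright level against the dimmest level that passed this flag on the other array, a signal of 20.8 in the light muzzle, or against the dim probe's own level if that was higher. Probes bind with different strength, so signals are compared between the cows and not between probes.

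Well above background were 67 member probes (76.1%) in the light muzzle and 80 (90.9%) in the dark muzzle, against 78.8% and 81.9% of all noncontrol spots. No spot was saturated, and no member spot was marked as an outlier. Feature Extraction's own error for these spots was about 10% of the signal, which is an error of 0.20 on a log2 ratio. It reached 0.43 for the dimmest measured pair. Of the 67 member probes measured on both arrays, 48 had a ratio larger than 2 times this spot error, 34 of them higher and 14 lower in the dark muzzle. This error covers the reading of the spots, not the spread between cows. The ratios of different probes of the same member transcript had a median SD of 0.47 over 18 transcripts, compared with 0.18 over 7661 transcripts of the whole array.

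Of the 67 member probes measured on both arrays, 24 (35.8%) were at least 2-fold higher and 6 (8.96%) at least 2-fold lower in dark muzzle. Over all 33451 probes measured on both arrays these shares were 8.43% and 6.8%. The share of higher probes thus stood above the background of the arrays, whereas the share of lower probes was close to it. A further 13 member probes (14.8% of 88) were detected in the dark muzzle alone, compared with 5.18% of all noncontrol probes, and 0 only in the light muzzle, compared with 2.12%. By their bound, 10 of those 13 were at least 2-fold higher, and such a bound can only point to the dark muzzle. With these included, 34 of 80 member probes were at least 2-fold higher, against 9.76% of all 36631 probes with a ratio, and 6 were at least 2-fold lower, against 7.17%. The other 40 of the 80, 50% of them, were within 2-fold, against 83.1%. The remaining 8 member probes were well above background in neither cow. Just past the 2-fold limit lay probes of KRT31 and KRT78, both with a ratio of 1.03, and just within it a probe of KRT74 at 0.97 and the probe of KRT33B at -0.97.

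**Figure D1:**
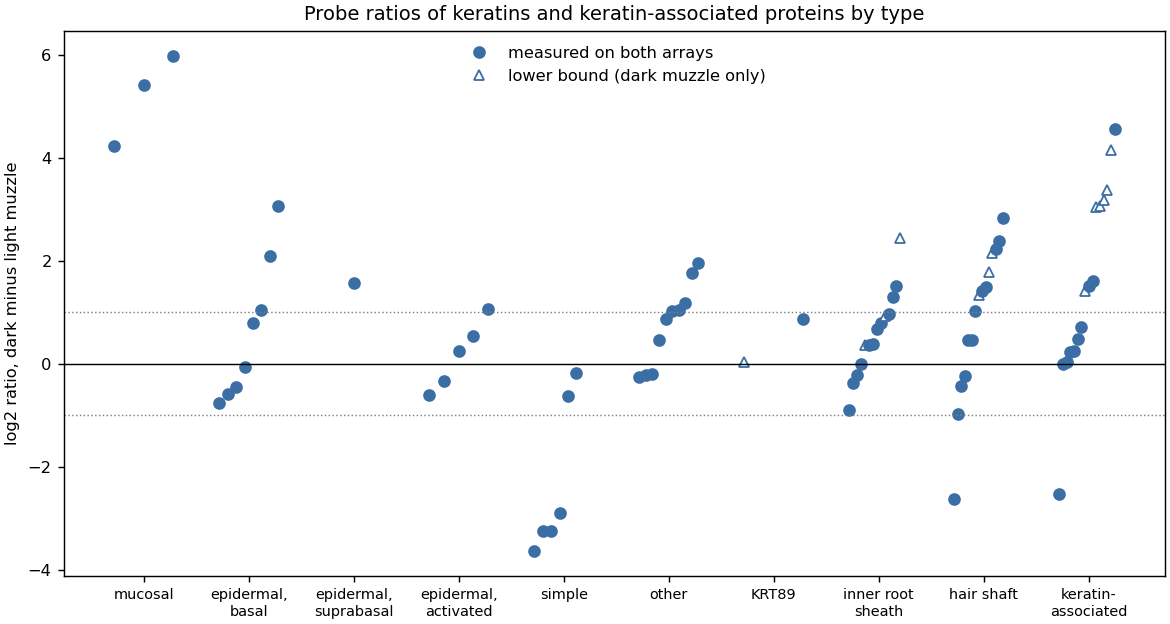
Log2 ratio (dark minus light muzzle) of each member probe with a ratio, by keratin type. Filled circles were measured on both arrays, open triangles are lower bounds of probes detected in the dark muzzle alone, and dotted lines mark 2-fold. The 3 probes of KRT4, the mucosal keratin, lie between 4.22 and 5.98, and 4 of the 6 simple keratin probes lie between -3.63 and -2.89.

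Among the genes measured in both cows, the largest difference was in KRT4 (NM_001098385), the type II keratin of moist stratified mucosa. Its brightest probe had a signal of 2885 in the light muzzle and 121452 in the dark muzzle. The other probes went from 278 to 17417 and from 484 to 8988. All 3 were well above background on both arrays, and all were higher in the dark muzzle, by 42.4-fold, 63.0-fold and 18.7-fold. The mean log2 ratio was 5.20 ± 0.89 (SD, n = 3 probes), or 36.8-fold. KRT4 was the only member of the mucosal list on the arrays under its symbol. Its type I partner KRT13, and KRT3, KRT12 and KRT76, were not analysed here.

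The basal keratins of stratified epithelium differed little, with the exception of KRT15. KRT5 (NM_001008663) had signals of 163960 and 118949 in the light-muzzle and dark muzzle by its brighter probe, and of 51095 and 33946 by the other. Its partner KRT14 (NM_001166575) had signals of 416913 and 399035 by its brighter probe, and of 106244 and 62268 by the other. Both members of this pair were thus slightly lower in the dark muzzle on every probe, by less than 2-fold. The mean log2 ratios were -0.52 ± 0.090 (SD, n = 2 probes) for KRT5 and -0.41 ± 0.50 (SD, n = 2 probes) for KRT14. The ratio of the brighter KRT14 probe, -0.055, was within the spot error.

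KRT15 (NM_001130747), a type I keratin of the basal layer and of the stem cell region of the hair follicle, was higher in the dark muzzle on all 4 of its probes. Its signals went from 37578 in the light muzzle to 77525 in the dark muzzle, from 23506 to 100359, from 19954 to 34220 and from 1882 to 15607. These probes differed in size but not in direction, with ratios of 1.05, 2.10, 0.79 and 3.06. The mean was 1.75 ± 1.04 (SD, n = 4 probes), or 3.37-fold, and by the brightest probe alone 1.05. KRT15 and KRT14 therefore had mean ratios of opposite sign, although both are type I keratins of the basal layer. The ratio of the brighter KRT14 probe was within the spot error, so the sign for KRT14 rests on its other probe.

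KRT10 (NM_174377), the type I keratin of the differentiating epidermal layers, was 2.98-fold higher in the dark muzzle. Its single probe had a signal of 138427 in the light muzzle and 409786 in the dark muzzle, a log2 ratio of 1.57. KRT78 (NM_001102077), a type II keratin of the upper layers of stratified epithelium, was at least 2-fold higher on each of its 5 probes. Its brightest probe went from 7415 to 15085 and the probe with the largest ratio from 265 to 1023. The ratios ranged from 1.03 to 1.95, with a mean of 1.39 ± 0.43 (SD, n = 5 probes), or 2.63-fold. Of these probes, 1 was 1.47-fold higher under normexp, another background correction, and 2 were between 1.87-fold and 1.98-fold higher under quantile and loess normalization.

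The keratins that epidermis switches on when injured or proliferating went opposite ways within 2-fold. KRT6A (NM_001083510) had signals of 106953 and 223826 by its brightest probe, which was 2.11-fold higher in the dark muzzle, but its other probes had ratios of 0.24 and 0.53. The mean was 0.62 ± 0.42 (SD, n = 3 probes). KRT17 (NM_001105322) had signals of 86830 and 56597 by its brighter probe and 939 and 743 by the other, and a mean ratio of -0.47 ± 0.20 (SD, n = 2 probes). KRT6B, KRT6C and KRT16 were not analysed here, and whether a KRT6A probe also binds transcripts of its close copies could not be checked.

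Of the keratins outside these groups, KRT23 had a ratio of 0.87 from signals of 81.1 and 147. KRT79, a keratin of the sebaceous duct and upper hair follicle, had a ratio of 0.47 from signals of 8725 and 12011. KRT80, which is made by many epithelia, had ratios between -0.26 and -0.20 on its 3 probes. Their SD was 0.032, the lowest of the 18 member genes with several measured probes.

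**Figure D2:**
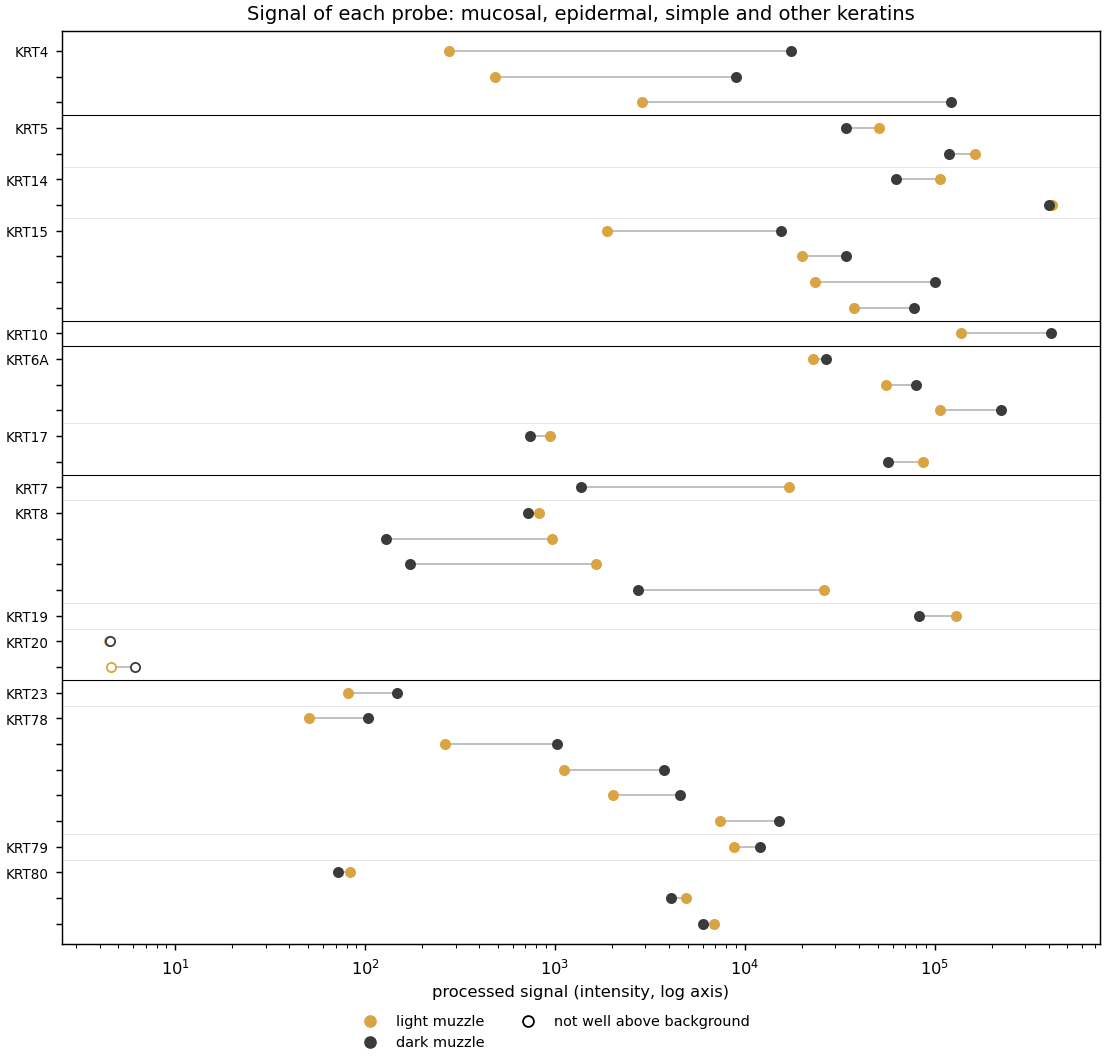
Processed signal of each probe in the light-muzzle (yellow) and dark-muzzle (dark) cow on a log axis, for mucosal, epidermal, simple and other keratins, separated by black lines. Each row is a probe, and open circles were not well above background. The 3 KRT4 rows run far to the right in the dark muzzle, whereas KRT7 and 3 of 4 KRT8 rows run to the left.

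The simple keratins KRT7 and KRT8, both type II, were lower in the dark muzzle. KRT7 (NM_001046411), a keratin of ducts and glands, had a single probe, with a signal of 17122 in the light muzzle and 1373 in the dark muzzle. It was 12.4-fold lower, a log2 ratio of -3.63. The brightest probe of KRT8 (NM_001033610) went from 26140 to 2744. The next went from 1640 to 172 and a further from 962 to 129, so that these 3 probes were 9.47-fold, 9.49-fold and 7.40-fold lower. The remaining KRT8 probe, with signals of 822 and 722, had a ratio of -0.18, within the spot error. The mean over all 4 probes was -2.39 ± 1.48 (SD, n = 4 probes), and by the brightest probe alone it was -3.24. No probe sequence was used here, so what sets this probe apart was not tested.

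KRT19 (NM_001015600), the smallest type I keratin, made by simple epithelium and also by basal cells of mucosa and hair follicle, differed much less than KRT7 and KRT8. Its single probe had signals of 128822 in the light muzzle and 83045 in the dark muzzle, a ratio of -0.62. KRT20, the keratin of gut epithelium, had signals of at most 6.15 and was well above background in neither cow. KRT18, the partner of KRT8, was not analysed here. Over the 3 simple keratins with a ratio the median was -2.39, compared with 0.017 over all genes and accessions of the arrays.

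Other epithelial genes were lower in the dark muzzle alongside the simple keratins. Of 12 measured genes of simple epithelium outside the keratin family, 8 were at least 2-fold lower and 0 at least 2-fold higher, with a median ratio of -1.39, while 6.47% of all genes with a symbol were at least 2-fold lower and 9.86% higher. The lowest were CLDN3, a tight junction protein, at -2.23, PRSS8, a membrane-bound protease, at -2.21 and ELF3, an epithelial transcription factor, at -2.16. RAB25 was the exception in sign, at 0.26. Of 12 serous gland markers with a ratio, 8 were at least 2-fold lower and 2 at least 2-fold higher in dark muzzle. Of these 8, 1 rests on a bound, which can only point to the light muzzle. The median of the 12 was -2.65, and that of the 11 measured markers was -2.50. The brightest in the light muzzle, PIP, went from a signal of 192082 to 6422. The part of gland content in the ratios of KRT7 and KRT8 was not tested.

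Genes of the cornifying layers outside the keratin family were higher alongside KRT10 and KRT78. Of 12 measured genes of epidermal differentiation, 8 were at least 2-fold higher and 0 at least 2-fold lower in dark muzzle, with a median ratio of 1.28 and none below 0.25. Over all genes with a symbol these shares were 9.86% and 6.47%. Loricrin, the main protein of the cornified envelope, went from a signal of 54817 to 144876, a ratio of 1.41. SDR9C7, an enzyme of barrier lipids, had the largest ratio, 2.33, and SPINK5, a protease inhibitor, the next, 1.82. Of 9 measured genes of cornified or moist stratified mucosa, 5 were at least 2-fold higher and 0 at least 2-fold lower, against the same shares. CRCT1 at 2.25 and TGM1 at 1.76 led them. The ratios of MAL and RHCG, which are well known from oesophagus, were -0.40 and -0.59. The 5 measured basal layer genes lay between -0.81 and 0.35, within 2-fold like KRT5 and KRT14.

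Skeletal muscle genes were also higher in the dark muzzle. All 19 measured were at least 2-fold higher, against 9.86% of all genes with a symbol. They lay between 2.24 and 3.68, with a median of 3.32. The ratio of KRT4 was larger than any of them. The 8 fibroblast markers were between -0.85 and 0.21, none of them 2-fold different. Of 6 melanocyte markers 4 were at least 2-fold higher, against the same 9.86%, and the median of the 6 was 1.48. Of these 4, TYRP1 rests on a bound, and over the 5 measured markers the median was 1.34. DCT went the other way, at -0.52. The part of tissue composition in the keratin ratios was not tested.

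**Figure D3:**
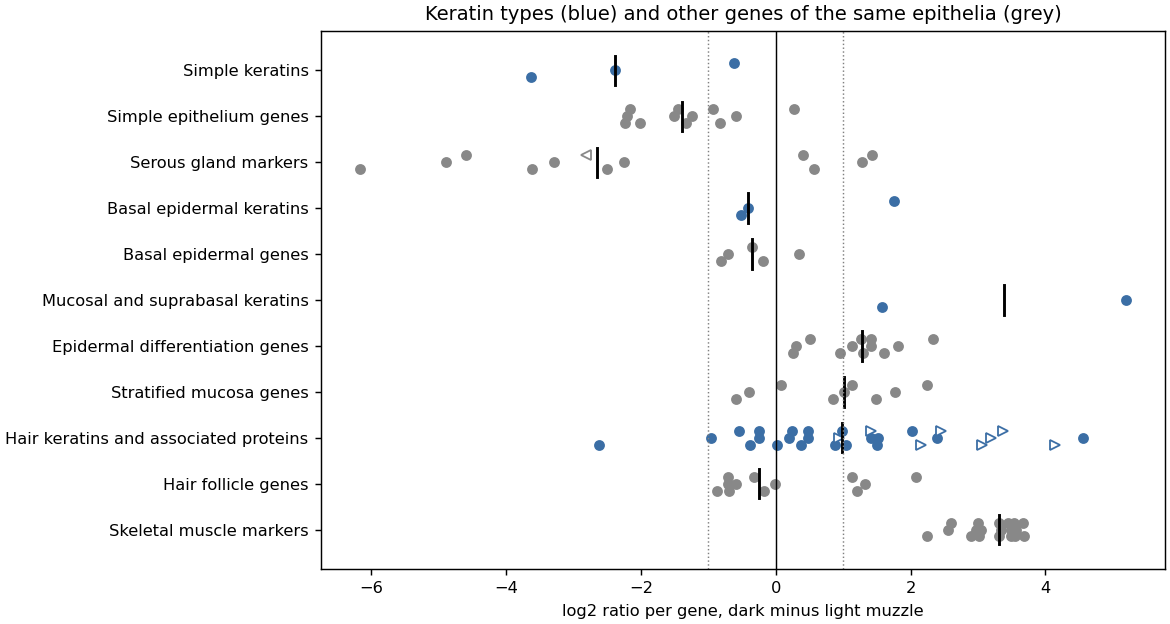
Log2 ratio per gene (dark minus light muzzle) for keratin types in blue and for other genes of the same epithelia, of glands and of muscle in grey. Open triangles are bounds, black bars are medians and dotted lines mark 2-fold. Simple keratins lie to the left together with simple epithelium and gland genes, and hair keratins spread over both sides.

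The hair types comprised 51 probes of 30 genes, with gene ratios from -2.62 to 4.57. On both arrays 33 of these probes were measured, covering 21 genes, and 11 of them were at least 2-fold higher and 2 at least 2-fold lower in dark muzzle, against 8.43% and 6.8% of all measured probes. The share of lower probes was thus close to the background. A further 12 probes were detected in the dark muzzle alone, and 6 in neither cow. By gene, 14 were at least 2-fold higher, 7 of these by a bound alone, 1 was at least 2-fold lower and 14 were within 2-fold, while 9.34% of all genes and accessions were higher and 7.64% lower by this measure. KRT40, a keratin of the hair cuticle, was well above background in neither cow. The median over genes was 0.99 with the bounded genes at their bound, and 0.47 over the measured genes alone, which is the same as the median of all 36 measured genes of the family.

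The inner root sheath is the sleeve that guides the growing hair, and its type I keratins include KRT25 to KRT28. KRT25 (NM_001075523) had signals of 167 and 475, a ratio of 1.52. KRT27 had signals of 136 and 216 by its brighter probe and 74.0 and 181 by the other, and a mean ratio of 0.99 ± 0.45 (SD, n = 2 probes). KRT26 had signals of 4.97 and 39.5 and KRT28 had signals of 17.6 and 113 by its brighter probe. Neither was well above background in the light muzzle, and they were at least 1.91-fold and at least 5.48-fold higher in dark muzzle. Under normexp KRT26 was at least 1.36-fold and KRT28 at least 2.22-fold higher. The dimmer KRT28 probe was at least 1.29-fold higher. The measured type I members of this group, KRT25 and KRT27, were thus higher in the dark muzzle. The bounds of KRT26 and KRT28 can only point that way.

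Among the type II members, KRT74 had a mean ratio of 0.88 ± 0.13 (SD, n = 2 probes) from signals of at most 85.5. KRT72 had a ratio of 0.37 by its single measured probe, with signals of 781 and 1007. KRT71, a main type II partner in this sheath, had signals of 209 and 160, a ratio of -0.38. KRT73 went from 1074 to 574 by its brighter probe, with a mean ratio of -0.55 ± 0.49 (SD, n = 2 probes). The type II keratins of the sheath therefore went both ways within 2-fold, and the 4 genes had no common direction. KRT75, the keratin of the companion layer around the sheath, had signals of 18012 and 23456 by its brighter probe and a mean ratio of 0.19 ± 0.28 (SD, n = 2 probes).

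The keratins of the hair shaft itself went both ways. KRT85 (NM_001075913), a type II keratin of the hair matrix, was 5.24-fold higher in the dark muzzle, with signals of 549 and 2861. KRT31 (NM_001076506), a type I keratin of the hair cortex, was higher on each of its 3 probes, which went from 184 to 375, from 29.5 to 208 and from 27.5 to 128. Its mean ratio was 2.03 ± 0.91 (SD, n = 3 probes), by the brightest probe alone 1.03 and under normexp 1.16. KRT33A (NM_001099099) had signals of 480 and 1349 and was 2.83-fold higher. KRT32, a keratin of the cuticle, was measured by 1 of 2 probes, with signals of 29.1 and 76.7 and a ratio of 1.41, which was 0.64 under normexp background correction. KRT34 was detected in the dark muzzle alone, with signals of 4.60 and 92.3 by the probe with the larger bound, at least 4.46-fold higher, or 2.13-fold under normexp.

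In contrast, KRT81 (NM_001076206), a type II keratin of the hair cortex, was 6.15-fold lower in the dark muzzle. Its single probe had a signal of 47195 in the light muzzle and 7628 in the dark muzzle, a log2 ratio of -2.62, and no alternative moved this ratio outside -2.78 to -2.57. With KRT7 and KRT8 it made up the 3 genes of the family that were at least 2-fold lower. KRT33B (NM_001083524), the close copy of KRT33A, also went the other way, from 1695 to 863, a ratio of -0.97. KRT35, a type I keratin of the hair matrix, had signals of 4976 and 4180 and a ratio of -0.24. KRT82 had a ratio of 0.47 from signals of at most 48.5.

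KRT83 (NM_001083385), whose sequence is close to that of KRT81, gave no common answer. Its brightest probe had signals of 16724 and 12405, a ratio of -0.42. A further probe had signals of 278 and 382, a ratio of 0.47. The third was detected in the dark muzzle alone, with signals of 6.04 and 71.5, at least 3.45-fold higher, or 1.93-fold under normexp. The mean of both measured probes was 0.023 ± 0.63 (SD, n = 2 probes), and its sign depended on the processing. Probes of the hair keratins may bind transcripts of close copies, and this could not be checked. KRT89, which was on none of the type lists, had a ratio of 0.86 by the measured probe, with signals of 44.5 and 80.5.

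**Figure D4:**
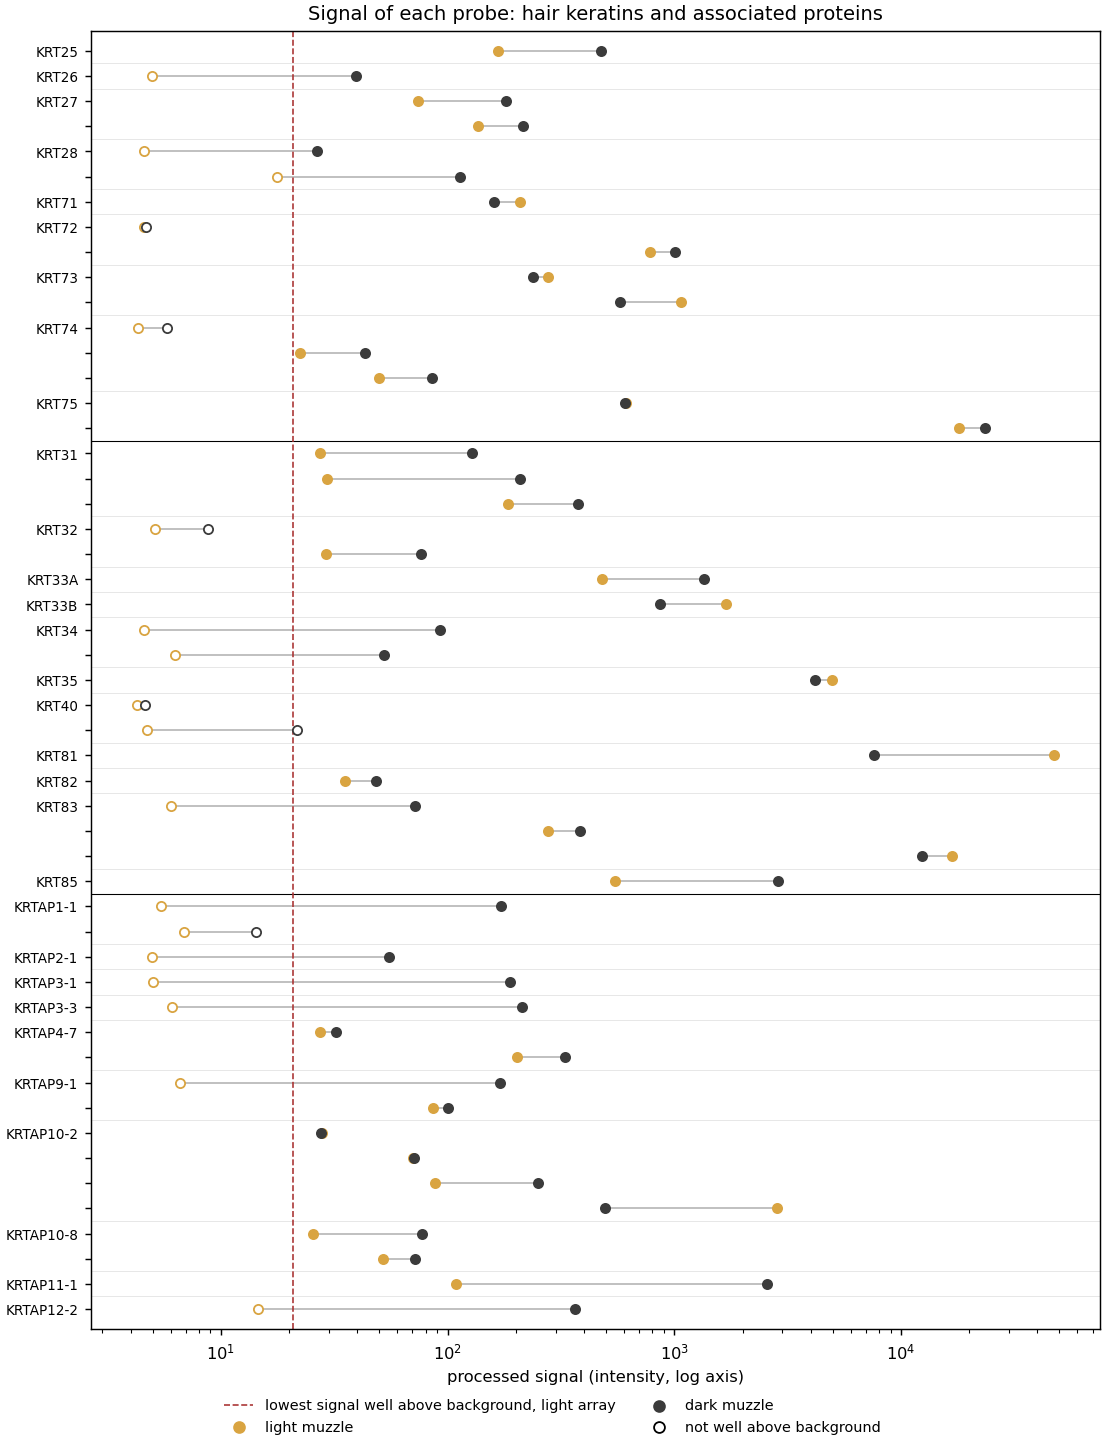
Processed signal of each probe in the light-muzzle (yellow) and dark-muzzle (dark) cow on a log axis, for inner root sheath keratins, hair shaft keratins and keratin-associated proteins from top to bottom. Open circles were not well above background, and the dashed line is the lowest signal well above background on the light array, 20.8. Of the 51 rows, 12 have an open circle for the light muzzle and a filled circle for the dark muzzle, and KRT81 has the largest shift to the left.

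Keratin-associated proteins cross-link the keratin filaments of the hair shaft through their cysteines, and the genes on the arrays belong to cysteine-rich families. KRTAP11-1 (NM_001080740) had the largest ratio of the 5 measured in both cows. Genes known by a lower bound cannot be ranked against it. Its single probe had a signal of 109 in the light muzzle and 2560 in the dark muzzle, which was 23.7-fold higher and 14.4-fold higher under normexp. KRTAP12-2 (NM_001080351) had signals of 14.6 and 366 and was at least 17.7-fold higher. KRTAP3-3 (NM_001077103) had signals of 6.08 and 214 and KRTAP3-1 (NM_001077104) had signals of 5.04 and 189, at least 10.3-fold and at least 9.11-fold higher. KRTAP1-1 went from 5.44 to 172 by 1 of its 2 probes and was at least 8.32-fold higher, while the other probe was well above background in neither cow. KRTAP2-1 went from 4.99 to 55.0 and was at least 2.66-fold higher. These 5 bounded genes were thus detected in 1 cow.

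The remaining keratin-associated proteins were above background in both cows and differed less. KRTAP4-7 had a mean ratio of 0.48 ± 0.32 (SD, n = 2 probes). KRTAP10-8 had a mean ratio of 1.04 ± 0.80 (SD, n = 2 probes), just past 2-fold, from signals of 25.5 and 77.2 by the probe with the larger ratio. The mean ratio was 0.51 under normexp and at its lowest 0.88 under the other normalizations, and by the brighter probe alone it was 0.48. The measured probe of KRTAP9-1 had signals of 85.9 and 101, a ratio of 0.24, but its other probe went from 6.63 to 171 and was at least 8.24-fold higher. KRTAP10-2 (NM_001110186) was the single member gene with probes at least 2-fold different in both directions. Its brightest probe went from 2843 to 493, 5.74-fold lower, another from 88.2 to 251, 2.87-fold higher, and the other 2 had ratios of 0.029 and -0.0090. Its mean of -0.25 ± 1.68 (SD, n = 4 probes) therefore describes none of them.

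By gene, 7 of the 10 keratin-associated proteins were at least 2-fold higher in dark muzzle and 0 at least 2-fold lower, against 9.34% and 7.64% of all genes and accessions. Of these 7, 5 rest on a bound. The median was 2.23 with bounds at their value and 0.48 over the 5 genes measured in both cows. Under normexp background correction the bounds were smaller, 4.60-fold for KRTAP12-2, 3.13-fold for KRTAP3-1, 2.80-fold for KRTAP3-3, 2.59-fold for KRTAP1-1 and 1.52-fold for KRTAP2-1. Their direction could not change, since a bound of a probe detected in the dark muzzle alone can only point to the dark muzzle.

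Genes of the hair follicle outside the keratin family went both ways. Of 12 measured, 4 were at least 2-fold higher, against 9.86% of all genes with a symbol, and 0 at least 2-fold lower, and the median ratio was -0.24. S100A3, a calcium-binding protein of the hair cuticle, had the largest ratio, 2.08, from signals of 88.3 and 372. The others past 2-fold were PSORS1C2 (1.33), GATA3 (1.20 ± 0.80, SD, n = 2 probes) and TGM3 (1.14). GATA3, a regulator of the inner root sheath, went from 942 to 3189 by its brighter probe. TGM3 is a cross-linking enzyme of hair and cornified epithelium that is also on the mucosa list. HOXC13, the transcription factor that drives hair keratin genes, had signals of 120 and 118 by its brighter probe and a mean ratio of -0.17. MSX2, a further regulator of hair, had a ratio of -0.71.

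Type I and type II keratins can also be set side by side. Of 16 type I keratin genes with a ratio, 8 passed 2-fold toward the dark muzzle and 0 toward the light muzzle. The ratios of 5 type I genes were below 0. The median was 1.20, with KRT26, KRT28 and KRT34 at their bound. KRT28 and KRT34 are among the 8, and such bounds can only point to the dark muzzle. The type II genes were all measured on both arrays, so the medians of both types are not directly comparable. Of 18 type II genes, 3 were at least 2-fold higher (KRT4, KRT78 and KRT85), 3 at least 2-fold lower (KRT7, KRT8 and KRT81) and 12 within 2-fold, with a median of 0.28. The shares over all genes and accessions were 9.34% higher and 7.64% lower. Of the pairs that are known to form filaments together, KRT5 and KRT14 had like mean ratios of -0.52 and -0.41. By the brighter probe of each gene these were -0.45 and -0.055. KRT6A at 0.62 and KRT17 at -0.47 had unlike ratios, as did KRT71 at -0.38 and KRT25 at 1.52. So did KRT7 at -3.63 and KRT19 at -0.62. KRT71, KRT25, KRT7 and KRT19 each rest on a single probe, and the partners KRT16 and KRT18 were not analysed here.

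Keratin genes lie side by side in 2 groups, 1 of each type, and several keratin-associated proteins lie within the type I group. No coordinates are given, since the assembly of the RefSeq table is not the one the array was designed on, and it was used for the order of genes alone. Along the type I group, which had 24 genes on the arrays, 12 were at least 2-fold higher and 0 at least 2-fold lower, against the same 9.34% and 7.64%. Of these 12, 6 rest on a bound, namely KRT28, KRT34, KRTAP3-3, KRTAP3-1, KRTAP1-1 and KRTAP2-1. The 6 keratin-associated proteins that neighbour each other in it, from KRTAP3-3 to KRTAP9-1, were all higher in the dark muzzle, 4 of them at least 2-fold. Those 4 rest on a bound, which can only point to the dark muzzle. The hair keratins KRT33B and KRT35 and the group's last members KRT19, KRT14 and KRT17 were below 0. Neighbours in the type II group differed more from each other. KRT81 and KRT7, at -2.62 and -3.63, lie next to each other among the measured members, whereas KRT8 at the other end of that group lies beside KRT78, at 1.39. KRT4 has KRT79 and KRT73 as its measured neighbours, with ratios of 0.47 and -0.55.

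**Figure D5:**
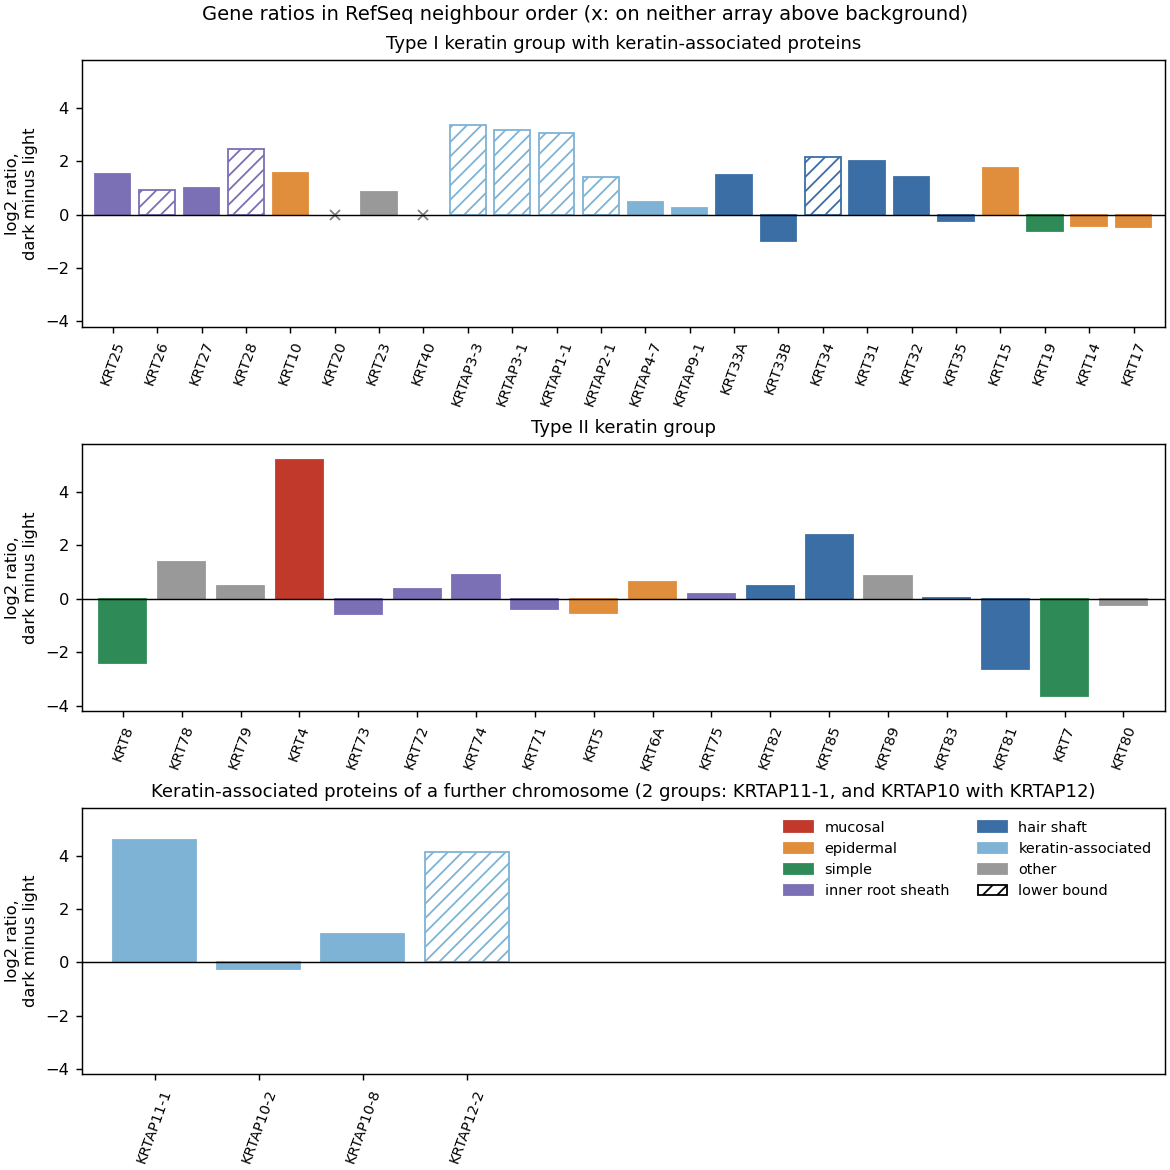
Log2 ratio per gene (dark minus light muzzle) in the order in which the genes lie along their chromosome, for the type I group, the type II group and the keratin-associated proteins of a further chromosome, where KRTAP11-1 lies apart from the other 3 genes shown. Colours give the keratin type, hatched bars are lower bounds and crosses are genes above background in neither cow. In the type I group no bar lies below -0.97, whereas the type II group holds KRT4 at 5.20 and KRT7 at -3.63.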

How the data were processed

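Muzzle RNA of 2 cows, 1 per colour, was measured on 1 Agilent bovine array each, and the samples were grouped by the tissue colour in their labels. The authors deposited the output of Agilent Feature Extraction 10.7.3.1, whose processed signal is a background-subtracted, detrended intensity. The authors also deposited a log2 table, which for 99.6% of spots equals log2 processed signal minus an array constant (within 0.001), of median -2.47 and -2.45, used as an alternative. Each array held 43803 noncontrol spots, of which 34519 and 35855 were well above background.

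The 75th percentile of each array was subtracted from log2 signals, 13 outlier spots per array were dropped, and replicate spots averaged per probe. A gene's ratio is the mean over its probes measured on both arrays or, with none, its largest bound. Symbols came from RefSeq (ARS-UCD2.0), which held the accessions of 20587 probes. Every keratin with a probe above background was named, and keratin-associated proteins past 2-fold or among the brightest. For other lists up to 3 genes with the largest ratio and the brightest were named. A few more were named after their values were seen (MAL, RHCG, RAB25, HOXC13, MSX2, DCT and the smaller keratin-associated proteins). Members, type lists and the other lists were chosen with earlier results of these data known.

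With 1 array per group no test was made. Alternatives were a 50th percentile shift, no shift, quantile and loess normalization (span 0.3), normexp background correction with an offset of 50 on the median pixel signal and local background, dim probes unfiltered or restricted to those above background in both samples, inclusion of outlier spots, the deposited table, thresholds of 1.5-fold and 3-fold, genes in place of probes, and the brightest probe. Software was R 4.3.3 with limma 3.58.1, and Python 3.11.15 with numpy 2.4.6 and pandas 2.3.3. The calculation was tested on simulated data.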

Additional observations from a re-analysis of the deposited data

How the results depend on the processing

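The number of member probes at least 2-fold lower was 6 under all normalizations, background corrections and filters tried, 11 at a threshold of 1.5-fold and 3 when genes were counted. The number higher was 34 at 2-fold, 42 at a threshold of 1.5-fold, 20 at 3-fold and 18 when genes were counted. At 2-fold, by probe, it lay between 24, with only probes above background on both arrays, and 39, without a filter on dim probes. Over all probes with a ratio, the share higher was 8.43% and 13.8% in the same settings, against 9.76% in the main one. Under normexp 26 member probes were higher, against 5.83% of all probes. The share of all probes at least 2-fold lower lay between 4.28% under normexp and 8.63% under quantile normalization. Shares over all probes at 1.5-fold and 3-fold were not computed. Under quantile normalization the median log2 ratios were 0.60 for inner root sheath keratins, 0.74 for hair shaft keratins, 1.99 for keratin-associated proteins and 0.64 for all members, and under loess normalization 0.64, 0.75, 1.98 and 0.66. Under normexp background correction they were 0.44, 0.44, 0.99 and 0.46, with 0.51 for the hair types together and -2.17 for simple keratins. Without a filter on dim probes they were 1.17 for hair shaft keratins, 3.25 for keratin-associated proteins, 1.19 for the hair types and -1.51 for simple keratins, to which the dim KRT20 was then added. With only probes above background on both arrays, which removes the bounded genes, they were 0.37, 0.47, 0.48 and 0.47 for inner root sheath keratins, hair shaft keratins, keratin-associated proteins and hair types, and 0.47 for all members. Of 21 genes at least 2-fold different, 18 stayed past 2-fold wherever an alternative gave a value, the exceptions being KRT32, KRTAP2-1 and KRTAP10-8. All 21 kept their sign, but KRT28, KRT34, KRTAP1-1, KRTAP2-1, KRTAP3-1, KRTAP3-3 and KRTAP12-2 were known by a bound. While dim probes were filtered, such a bound could only point to the dark muzzle, so the sign of these genes was fixed in advance. Of the genes within 2-fold, KRT83 alone changed sign, and 6 passed 2-fold under an alternative, KRT26, KRT83 (1.21), KRT89 and KRTAP9-1 (2.47) without a filter on dim probes and KRT6A (1.07) and KRTAP10-2 (-2.52) by the brightest probe. Except where the removal or addition of dim genes explains it, the cause was not tested. No paired analysis was possible because each muzzle colour had 1 array, for which reason no array could be left out either. Signal over background limits the keratin-associated proteins most, since 6 of their 17 probes had only a bound.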
